A study of Mus musculus with 8 samples.

Results

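The clock output and nuclear receptor genes described here are the 10 genes Dbp, Tef, Hlf, Nfil3, Nr1d1, Nr1d2, Rora, Rorb, Bhlhe40 and Bhlhe41. They were chosen by gene name, with earlier results of these data known, and 15 of the 55681 probes on the array carry one of these names. Dbp, Nr1d2, Rora, Rorb and Bhlhe41 have 2 probes and the other genes have 1. All 15 probes exceeded background well on each of the 8 arrays, and all were among the 34098 probes of 23435 genes that were tested. The tissue was the medial prefrontal cortex (mPFC) of 8 adult male C3H/HeN mice, each on a single-colour array of its own. The 4 mice of the maternal separation (MS) group were taken from their dam each day between postnatal days 2 and 14, and their dams were exposed to unpredictable stress. The 4 control mice were left undisturbed. All mice were weaned on postnatal day 21, housed 4 to 6 per cage, later tested in an operant task for palatable food and fasted before killing. The paper states that the light and dark phases were inverted before the operant task. It also reports higher plasma corticosterone in male MS mice of this strain than in controls at the start of the dark phase. The bearing of this on the genes described here was not tested. The sources used here do not give the hour of killing. Animals carry their label numbers, MS 5.3, 7.1, 7.2 and 7.6 and control 6.2, 8.2, 8.4 and 8.5. The meaning of the number before the point is not given, and if it marks a litter, animals that share it are not fully independent.

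In nearly every cell, a clock of activators (CLOCK and BMAL1) and repressors (PER and CRY) drives its own rhythm of transcription over the day. The genes described here carry that rhythm outwards and feed it back. REV-ERB repressors (Nr1d1, Nr1d2) and ROR activators (Rora, Rorb) compete for the same DNA element, among others in the gene of BMAL1. The activators DBP, TEF and HLF and the repressor NFIL3 (E4BP4) likewise compete for D-box elements. DEC1 and DEC2 (Bhlhe40, Bhlhe41) are repressors that bind the E-box, the element of CLOCK and BMAL1. In the forebrain these clocks are set by light through the suprachiasmatic nucleus, by feeding and by glucocorticoids. Mice of C3H strains lose their rod and cone photoreceptors early in life through an inherited mutation of Pde6b. Unlike many laboratory strains, they make melatonin.

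The stretches of promoter shown next come from 5 genes in which one of these elements was found. RefSeq sequence of GRCm38.p6 was matched for 9 of the 10 genes, in 11 windows. The 250 bases before each start site were searched on both strands for the E-box CACGTG, its variant CACGTT, the D-box TTANGTAA, the half-site AGGTCA of REV-ERB and ROR, and the cyclic AMP element TGACGTCA. Capitals mark the match, and each stretch holds 100 bases read 5′ to 3′ on the strand of the gene.
Nr1d1, chr11:98775378-98775477, minus strand: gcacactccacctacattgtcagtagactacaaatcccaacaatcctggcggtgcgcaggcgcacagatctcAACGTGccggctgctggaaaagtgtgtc
Bhlhe41, chr6:145865521-145865620, minus strand: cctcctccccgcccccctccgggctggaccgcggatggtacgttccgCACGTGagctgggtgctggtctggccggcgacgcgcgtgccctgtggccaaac
Tef, chr15:81802499-81802598, plus strand: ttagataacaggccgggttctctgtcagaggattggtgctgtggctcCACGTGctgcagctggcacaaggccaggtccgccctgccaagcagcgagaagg
Nfil3, chr13:52981040-52981139, minus strand: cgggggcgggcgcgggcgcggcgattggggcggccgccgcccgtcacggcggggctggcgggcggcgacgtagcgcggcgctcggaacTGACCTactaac
Nr1d2, chr14:18239131-18239230, minus strand: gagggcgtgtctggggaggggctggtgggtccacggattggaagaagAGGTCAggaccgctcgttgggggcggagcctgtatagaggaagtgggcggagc

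The match in Nr1d1 is the E-box variant on the other strand, and it begins 28 bases before the start site. Bhlhe41 holds an E-box that begins 153 bases before its start, and each of the 2 windows of Tef holds one, at 127 and 138 bases. In Nfil3 the half-site lies on the other strand, 12 bases before the start, and in Nr1d2 it begins 77 bases before it. Hlf holds the cyclic AMP element 9 bases before its start. One of the windows of Rorb holds a D-box and the E-box variant, and none of the searched letters was found in the windows of Dbp and Rora. The windows of 7 of the 9 genes thus hold at least 1 match. The share of all genes with a match to any of these elements is not given, so this count has no background beside it. Among 32851 promoter windows of the same length, 6.02% hold the E-box, 3.85% the variant, 2.06% the D-box, 14% the half-site and 1.55% the cyclic AMP element. A match is a description of the letters only.

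A few facts of the arrays bear on the values that follow. The level of a gene is given as the log2 signal of its brightest tested probe relative to that array's 75th percentile, and levels of different probes are not compared. Control 8.4 stood apart, with a median correlation of 0.9871 with the other arrays, against at least 0.993 for every other array. Marker scores, averaged over a marker list after each marker was centred on its 8 values, differed between animals. For the 8 markers of striatal projection neurons control 8.4 scored 1.43, and no other animal scored outside -0.35 to -0.06. For the 6 tested markers of the olfactory bulb control 8.4 scored 3.07, MS 7.6 scored 1.82 and control 8.5 scored 1.15, while the other 5 animals lay between -1.39 and -0.83. All 6 bulb markers were detected in each animal, and their summed level relative to the 75th percentile ran between 2.23 and 16.7 in MS mice and between 2.06 and 41.1 in control mice. The 3 markers of cortical layers 2 and 3 were low in control 8.4 (score -0.60, against 0.02 to 0.16 elsewhere). Control 8.4 also had the highest scores for astrocytes (0.33, against at most 0.15 elsewhere) and oligodendrocytes (0.36, at most 0.02 elsewhere). The same held for layer 6 (1.02, at most 0.06 elsewhere). The markers of neurons, which the tissue should hold, were detected on all arrays with scores between -0.11 and 0.10.

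The first question was whether the level of these genes differed between MS and control mice. None of the 10 genes passed the limma test at an adjusted p of 0.05, and 9 of them were higher in MS by point estimate, all by small amounts. The members' median difference was 0.12 on the log2 scale, of the same size as their median standard error of 0.125. Over all 34098 probes tested, the median was 0.01, 0% were called at an adjusted p of 0.05 (the smallest was 0.9996), 2.39% (815 probes) had an unadjusted p under 0.05 and 54.9% were higher in MS. At the brightest probe none of the 10 genes had an unadjusted p under 0.05. The groups overlapped for all 10, where 1.43% of all probes had groups that did not. The 10 genes vary together in part, so that their directions do not count as 10 separate observations. Without the 3 animals with the highest bulb score, a comparison added after the data were seen, 6 of 10 were higher, with a median of 0.09.

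**Figure D1:**
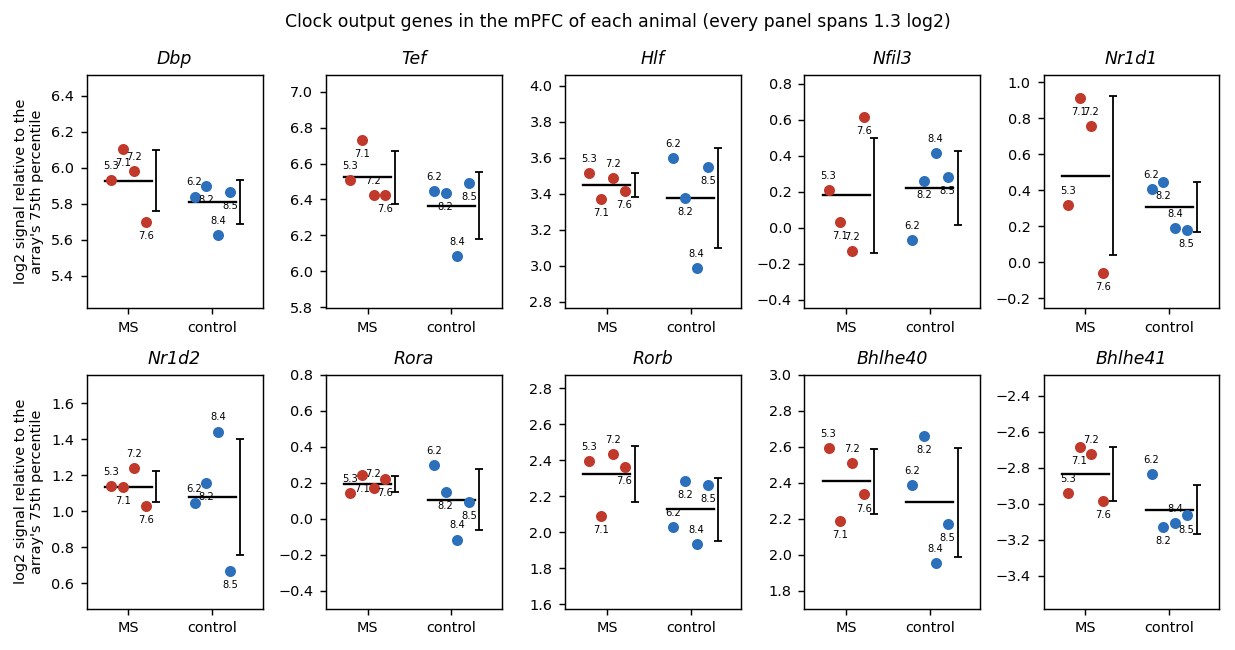
Level of each gene (log2 signal relative to the array's 75th percentile, brightest probe) in each animal, with MS in red and control in blue, the animal's number beside its point, the group mean as a line and the SD as a bar (n = 4 each). Red and blue points overlap in every panel, and control 8.4 is the lowest point for 6 of the 10 genes.

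Among the PAR bZIP activators, Dbp, whose transcript follows CLOCK and BMAL1 closely through the day, stood at 5.93, 6.10, 5.98 and 5.70 in MS 5.3, 7.1, 7.2 and 7.6, against 5.84, 5.90, 5.63 and 5.86 in control 6.2, 8.2, 8.4 and 8.5. MS 7.1 was the highest animal, and MS 7.6 and control 8.4 lay below all others. The difference of Dbp was 0.12 (95% CI -0.12 to 0.36), and its dimmer probe, which correlated with the first at 0.92 over the 8 animals, gave 0.08. Other normalizations made the difference of Dbp smaller, at 0.057 (quantile), 0.034 (normexp) and 0.028 (the authors' table).

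Tef had levels of 6.51, 6.73, 6.43 and 6.42 in the MS mice and 6.45, 6.44, 6.09 and 6.49 in the control mice, in the same order of animals. All but 2 animals were close together, MS 7.1 being high and control 8.4 low. The difference was 0.16 (95% CI -0.11 to 0.42), and 0.06 without control 8.4. Hlf, the third PAR bZIP factor, had levels of 3.52, 3.37, 3.48 and 3.42 in MS mice and 3.60, 3.37, 2.99 and 3.55 in control mice. The low value is again that of control 8.4. Hlf differed by 0.07 (95% CI -0.24 to 0.37), and by -0.06 without that animal.

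Nfil3, the D-box repressor, was the 1 gene lower in MS by point estimate, at -0.04 (95% CI -0.43 to 0.35). Its levels were 0.21, 0.03, -0.13 and 0.61 in MS mice and -0.07, 0.26, 0.41 and 0.28 in control mice. Both the highest animal (MS 7.6) and the lowest (MS 7.2) were MS mice, so that the spread within the group exceeded the difference between groups. The sign turned on leaving out MS 7.1 (0.01), MS 7.2 (0.06) or control 8.4 (0.02).

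Of the REV-ERB genes, Nr1d1 had the widest spread of the 10 genes over the 8 animals, 0.97 between the highest and the lowest. Its levels were 0.32, 0.91, 0.76 and -0.06 in MS 5.3, 7.1, 7.2 and 7.6, against 0.40, 0.44, 0.19 and 0.18 in control 6.2, 8.2, 8.4 and 8.5. The highest 2 animals and the lowest were all MS mice, and the control mice fell between them. MS mice had an SD of 0.44 and control mice one of 0.14 (n = 4 each), and the difference in spread was not tested. The mean difference was 0.18 (95% CI -0.28 to 0.63), and it was 0.03 without MS 7.1, 0.08 without MS 7.2 and 0.36 without MS 7.6. The Nr1d1 probe is shown because this gene spread most between animals. Its 60 bases span 503 bases of genome (mm9, chr11:98630526-98631028, minus strand), so the probe crosses a junction between exons and reads spliced transcript.
Nr1d1 probe: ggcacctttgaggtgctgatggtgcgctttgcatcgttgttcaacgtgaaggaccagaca

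Nr1d2, the second REV-ERB gene, had levels of 1.14, 1.14, 1.24 and 1.03 in MS mice and 1.05, 1.16, 1.44 and 0.67 in control mice. Here the extremes were 2 control mice, 8.4 at the top and 8.5 at the bottom, and the MS mice lay between them. The difference was 0.06 (95% CI -0.29 to 0.40), 0.18 without control 8.4 and -0.08 without control 8.5, and the dimmer probe gave 0.05. The 2 probes correlated at 0.73, and the dimmer one put MS 7.6 (0.49) at the bottom beside control 8.5 (0.54).

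Among the ROR genes, Rora had levels of 0.14, 0.24, 0.17 and 0.22 in MS mice and 0.30, 0.15, -0.11 and 0.09 in control mice. Its range over the 8 animals, 0.41, was the smallest of the 10 genes, and control 8.4 was again the lowest. The difference of 0.09 (95% CI -0.13 to 0.31) became 0.01 without control 8.4. The dimmer Rora probe, which correlated with this one at 0.60, had a wider range of 0.67, put control 8.2 (-3.16) at the bottom and gave a difference of 0.22 (95% CI -0.10 to 0.53). Rorb, which in cortex is best known from layer 4 neurons, had levels of 2.40, 2.09, 2.43 and 2.36 in MS mice and 2.03, 2.29, 1.93 and 2.27 in control mice. In this gene 3 of 4 MS mice were above all control mice, and MS 7.1 was the exception. The difference was 0.19 (95% CI -0.07 to 0.46, unadjusted p = 0.127 by limma). The score of the 3 layer 4 markers ran between -0.06 and 0.20 in MS mice and between -0.12 and -0.03 in control mice, and its part in the difference was not tested.

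The dimmer Rorb probe was the 1 probe of the 15 with an unadjusted p under 0.05, where 2.39% of all probes had one. It read -0.15, 0.11, 0.10 and 0.05 in MS mice and -0.33, 0.07, -0.52 and -0.38 in control mice, with control 8.2 inside the MS range. The difference was 0.31 (95% CI 0.01 to 0.62, unadjusted p = 0.0426, adjusted p = 0.9996 by limma), and the exact permutation test over 70 labellings gave a two-sided p of 0.0857. Its correlation with the brighter Rorb probe over the 8 animals was 0.59. The probe lies at mm9 chr19:19012149-19012208 and is shown in part because of its composition, with 46 of its 60 bases G or T, as many as 0.414% of the tested probes have or exceed.
Rorb dimmer probe, bases 17 to 46: ttgtttgttcgtttgttgtttgtttgtttt

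Bhlhe40 (DEC1), which in neurons also responds to activity, had levels of 2.59, 2.19, 2.51 and 2.34 in MS mice and 2.39, 2.66, 1.95 and 2.17 in control mice. The highest and the lowest animal were both control mice. The difference of 0.11 (95% CI -0.25 to 0.48) was 0.24 without control 8.2 and 0.00 without control 8.4. Bhlhe41 (DEC2) had the largest difference of the 10 genes at their brightest probes. Its levels were -2.94, -2.68, -2.73 and -2.99 in MS mice and -2.83, -3.13, -3.11 and -3.07 in control mice. All MS mice were above 3 of the 4 control mice, and control 6.2 lay within the MS range. The difference was 0.20 (95% CI -0.04 to 0.44, unadjusted p = 0.0889 by limma), the exact permutation test gave a two-sided p of 0.114, and the dimmer probe, correlated with the first at 0.81, gave 0.16.

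**Figure D2:**
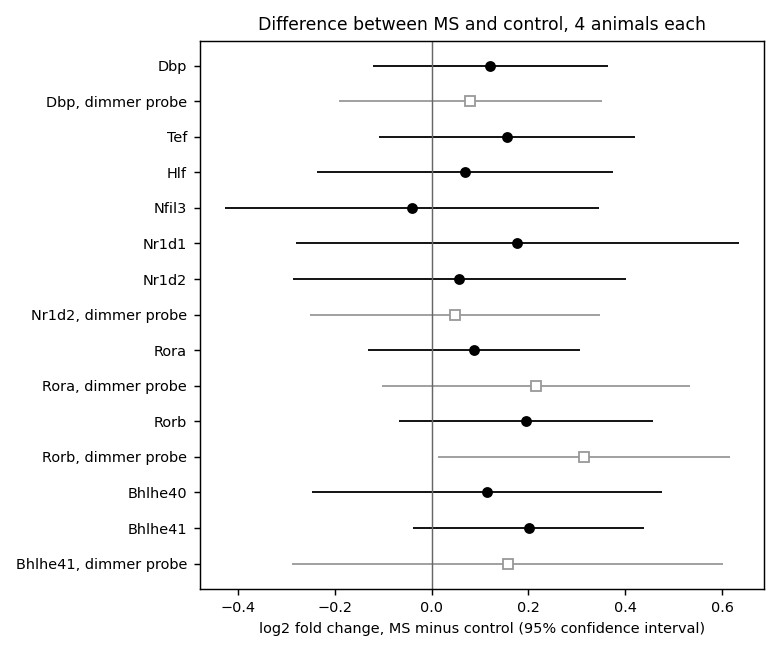
Difference between MS and control (log2, MS minus control, 95% confidence interval, n = 4 each) for the brightest probe of each gene in black and the dimmer probe in grey. All 10 black intervals include 0, and of the grey ones that of Rorb (0.01 to 0.62) does not.

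The other genes of the pathway gave no call either. They were taken from lists drawn up with earlier results of these data known. Of 14 core clock genes, 13 were higher in MS by point estimate with a median of 0.08, between Fbxl21 (-0.23) and Ciart (0.21), and 0 passed at an adjusted or an unadjusted p of 0.05. Arntl, which encodes BMAL1 and is the target that REV-ERB and ROR share, differed by 0.04 (95% CI -0.30 to 0.38). Of 7 known targets of the output factors 4 were higher (median 0.02), and of the 4 co-regulators of REV-ERB and ROR 1 was higher (median -0.05). All 6 activity-induced genes were higher by point estimate (median 0.19, Arc at 0.39), as were 4 of 5 glucocorticoid-induced genes (median 0.09), and 0 of these passed either threshold. Over all probes tested, 54.9% were higher in MS. Genes of a list were measured in the same animals and can vary together, so their directions do not count as separate observations.

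The second question was how these genes varied together over the 8 animals. No pair passed after adjustment, and the share of close pairs was near that of other genes. Of the 45 pairs, 30 correlated above 0 and 15 below it, and 8 reached a Pearson r of 0.7 in size (17.8%, against 13.9% for pairs of a member with any gene tested). The median size of r was 0.44, against 0.39 for such pairs. By exact permutation of the pairings 6 pairs had an unadjusted two-sided p under 0.05, and 0 of 45 passed after Benjamini-Hochberg adjustment (smallest 0.198). All the points come from the same 8 animals and arrays.

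Dbp and Nr1d1 had the closest relation, with r = 0.85 (exact permutation p = 0.0094, adjusted 0.198) and Spearman's rho = 0.79 (p = 0.0279, adjusted 0.618). It was 0.87 without MS 7.1 and control 8.4, the 2 animals farthest from the median of Dbp, and 0.84 with the group means removed. Both genes are classical E-box targets, though the window of Dbp held none of the searched letters. The bearing of this on the correlation was not tested. Nr1d1 and Bhlhe41 correlated at 0.75 (exact p = 0.034, adjusted 0.275; rho = 0.55, p = 0.171, adjusted 0.735), and at 0.74 without the 2 farthest animals.

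Nfil3 correlated below 0 with these genes. Its correlation was -0.82 with Nr1d1 (exact p = 0.0132, adjusted 0.198; rho = -0.81, p = 0.0218, adjusted 0.618) and -0.62 without MS 7.2 and MS 7.6. With Bhlhe41 it was -0.73 (exact p = 0.0414, adjusted 0.275; rho = -0.71, p = 0.0576, adjusted 0.618) and -0.84 without the same 2 animals. With Dbp it was -0.71 (exact p = 0.0462, adjusted 0.275; rho = -0.69, p = 0.0694, adjusted 0.618) and -0.75 without MS 7.1 and control 8.4. REV-ERB proteins are known to repress Nfil3. Its printed promoter holds the half-site, as do 14% of all promoter windows of that length. The part of either in these correlations was not tested.

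Dbp and Tef correlated at 0.85 (exact p = 0.0106, adjusted 0.198; rho = 0.69, p = 0.0694, adjusted 0.618) and at 0.28 without MS 7.1 and control 8.4 together, but still at 0.75 without MS 7.1 alone and at 0.74 without control 8.4 alone. Hlf and Rora and likewise Tef and Rora rested on control 8.4, with r of 0.03 and 0.18 without it. Hlf and Rora correlated at 0.78 (exact p = 0.0592, adjusted 0.275; rho = 0.24, p = 0.582, adjusted 0.831) and at -0.75 without control 6.2 and control 8.4. Tef and Rora correlated at 0.75 (exact p = 0.0611, adjusted 0.275; rho = 0.26, p = 0.537, adjusted 0.831) and at -0.53 without MS 7.1 and control 8.4. At its brighter probe Nr1d2 went with neither side, at 0.25 with Nr1d1, its paralog, and -0.16 with Dbp. This depends on the probe, since the dimmer Nr1d2 probe had the same extremes as Nr1d1. It put MS 7.1 (1.01) at the top and MS 7.6 (0.49) at the bottom, and its own correlations are not given.

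**Figure D3:**
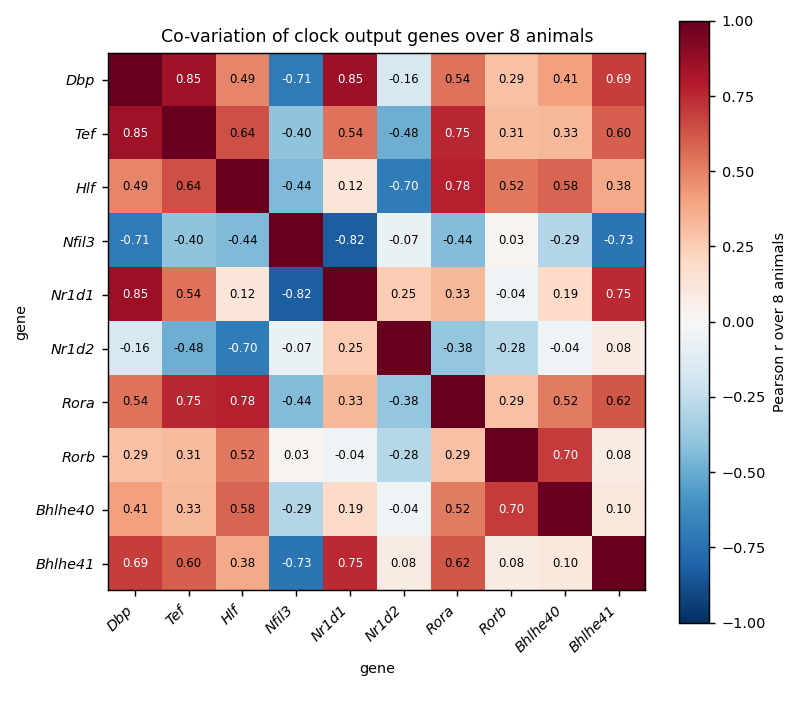
Pearson r over the 8 animals for each of the 45 pairs of genes, red for pairs that vary together and blue for pairs that vary inversely. The row of Nfil3 is blue against Dbp (-0.71), Nr1d1 (-0.82) and Bhlhe41 (-0.73), which are red with each other.

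The 36 listed genes gave 360 further relations with the 10 members, of which 39 had an unadjusted exact p under 0.05 and 0 passed after adjustment (smallest 0.0536). As a whole these genes were no closer to the members than other genes, since 49 relations (13.6%) reached an r of 0.7 in size, against 13.9% for any gene, and the median size was 0.33, against 0.39. The closest relations are given as a description. Nr1d1 correlated at 0.94 with Usp2, a deubiquitinase whose transcript is a clock output in many tissues (rho = 0.90, p = 0.00102 and 0.00456, adjusted p of r 0.0791), which ranks 20 among 23423 genes. It correlated at 0.91 with Ciart, a repressor of CLOCK and BMAL1 (rho = 0.93, p = 0.00102 and 0.00223, adjusted p of r 0.0791), and at -0.91 with Cdkn1a, the cell cycle inhibitor p21, a known REV-ERB target (rho = -0.86, p = 0.00154 and 0.0107, adjusted p of r 0.0791). Without the 2 farthest animals these were 0.94, 0.91 and -0.77.

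For Nfil3 the signs were opposite. Its r was 0.94 with Cdkn1a (rho = 0.83, p = 0.00134 and 0.0154, adjusted p of r 0.0791), which ranks 6 of 23423 genes, and -0.92 with Ciart (rho = -0.95, p = 0.00141 and 0.00114, adjusted p of r 0.0791), which ranks 31 from the bottom. Without the 2 farthest animals they were 0.91 and -0.80.

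By animal, Ciart was at -0.53, -0.10, 0.00 and -1.62 in MS 5.3, 7.1, 7.2 and 7.6, against -0.33, -0.40, -1.25 and -1.11 in control 6.2, 8.2, 8.4 and 8.5. Cdkn1a was at 1.07, 0.14, 0.38 and 1.78 in the MS mice, against 0.37, 0.94, 1.27 and 0.99 in the control mice. Usp2 was at 3.13, 3.38, 3.45 and 2.99 in the MS mice, against 3.22, 3.24, 3.12 and 3.18 in the control mice. MS 7.1 and MS 7.2 thus stood at one end of the order for Nr1d1, Dbp, Ciart and Usp2, and MS 7.6 at or near the other end. The 3 share the first number of their labels.

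The order of the animals for Nr1d1 also went with the bulb markers. The 3 animals with bulb scores of 1.15 to 3.07 (MS 7.6, control 8.4 and control 8.5) had the 3 lowest levels of Nr1d1 (-0.06, 0.19 and 0.18) and the 3 highest of Nfil3 (0.61, 0.41 and 0.28). In bulk tissue, another mixture of cells and another level per cell cannot be told apart. The other 5 animals, with scores of -1.39 to -0.83, ran between 0.32 and 0.91 for Nr1d1, and MS 7.1 and MS 7.2 were the highest of them. The pairs were also taken over the 6 animals left without control 8.4 and MS 7.6, a choice made after the data were seen. Control 8.5, with a bulb score of 1.15, was kept, so the contrast in bulb score was not removed. Over these 6 animals r was 0.88 for Dbp and Nr1d1, -0.64 for Nfil3 and Nr1d1, and -0.86 for Nfil3 and Bhlhe41. It was 0.80 for Nr1d1 and Bhlhe41 and -0.30 for Dbp and Nfil3. By exact permutation 0 of 45 pairs passed (smallest adjusted p 0.643). Within MS alone (4 animals, no test) r was 0.96 for Dbp and Nr1d1 and -0.92 for Nfil3 and Nr1d1, and within control it was 0.59 and -0.62.

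**Figure D4:**
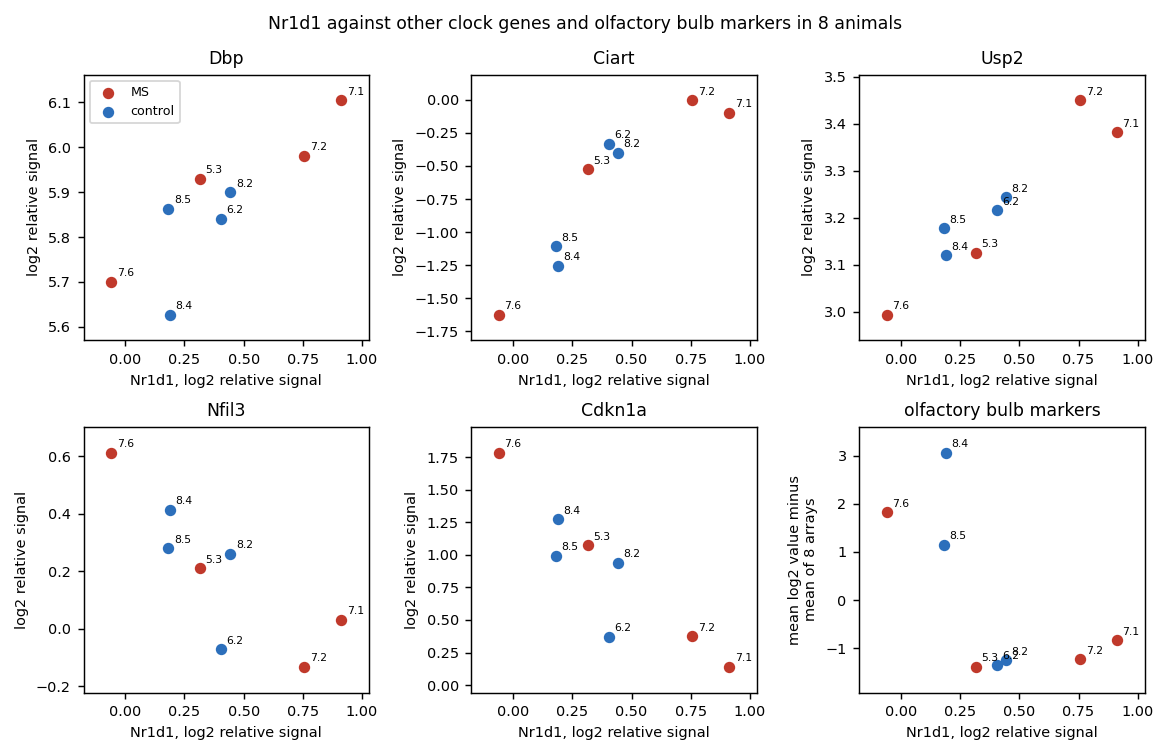
Level of Nr1d1 in each animal (horizontal axis, log2 relative signal) against Dbp, Ciart, Usp2, Nfil3 and Cdkn1a (log2 relative signal) and against the olfactory bulb marker score (mean over the markers, each centred on its 8 values), with MS in red, control in blue and the animal's number beside each point. MS 7.1 and 7.2 lie at the right of each panel and MS 7.6 at the left, and the 3 animals with high bulb scores are the 3 farthest to the left.

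Of all named genes tested (16283), those with a pattern over the 8 animals most like a member's were mostly outside the listed clock genes. For Nr1d1 they were Oprl1 (r = 0.98), Zfp800 (0.98) and Chaf1b (0.98), for Dbp Spin2c (0.99), Klf6 (0.98) and Kif1b (0.97), and for Nfil3 Htr5b (0.95) and Myo9b (0.95), with Cdkn1a (0.94) in the fourth place. For Tef they were Ttc3 (0.99) and Gigyf2 (0.98), for Bhlhe40 Ift20 (0.99) and Gal3st3 (0.99), for Bhlhe41 Nrg4 (0.96) and Vcpkmt (0.96). For Nr1d2 they were N4bp2l1 (0.97) and Sos2 (0.97), for Rora Slc26a8 (0.96), for Rorb Atp8a2 (0.97) and for Hlf Calm3 (0.97). With 8 points and this many genes, correlations of this size arise for every member, so that these names describe the arrays only.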

How the data were processed

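Total RNA of the mPFC was labelled with Cy3 (200 ng per animal) and hybridised to Agilent mouse arrays (design 28005 and probe coordinates on mm9, per the file headers). All 8 arrays were on 1 slide, and each of its 2 rows held 2 of each group. Intensity values per spot in the deposited scanner output come from Agilent Feature Extraction 10.10.1.1, which subtracted the background without scaling arrays to each other. A second table of log2 values, normalised by the authors, served as an alternative only.

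Control spots (3671 of 62976) and outlier spots were left out, spots of a probe were averaged, and log2 signal minus the array's 75th percentile was used. A probe was tested if either group had it well above background in all 4 animals. The 75th percentile of the signal ran between 588 and 892 units, and the number of arrays limits the precision. Symbols came from the RefSeq table of GRCm38.p6, used for names and promoter sequences, by accession for 27235 probes, by symbol for 3581 and by synonym for 565; the file's own name was kept for 24300. Exon and UTR annotation on mm9 was not used here.

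MS and control were compared with limma 3.58.1 (two-sided moderated test by lmFit and eBayes, no covariate, Benjamini-Hochberg over 34098 probes) in R 4.3.3 with statmod 1.5.0, after a check on simulated data. Exact permutation tests used all 70 labellings (smallest two-sided p 0.0286), and correlations all pairings of the 8 animals, with pandas 2.3.3 and scipy 1.17.1 in Python 3.11.15. The p-values measure the spread between these animals. The named genes are all 10 members at their brightest tested probe, lists of clock, target, co-regulator, activity-induced and glucocorticoid-induced genes, and for each member the 5 named genes with the highest r, of which some are printed. Members, lists and tests were chosen with earlier results of these data known. Alternatives were quantile normalization, normexp (offset 50), the authors' table, all probes of a gene, other filters, an intensity trend, slide row or first label number as a block, and leaving out animals. Some named genes are not reported here.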

Additional observations from a re-analysis of the deposited data

Results flagged for a closer look

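Of 62 groups of 4 animals looked at, 4 held 1 animal far from the other 3, and chance gives about 1 in 20. In Tef, control 8.4 was at 6.09, against 6.44 to 6.49 in the other control mice. In Fabp7, a target of the clock output factors and a radial glia and astrocyte gene, control 8.4 was at 3.72, against 1.68 to 1.97. In Csnk1d and Csnk1e, kinases of the PER proteins, control 8.2 was at 4.93 (others 4.76 to 4.78) and control 8.5 at 2.67 (others 2.90 to 2.94). Control 8.4 is also the animal with the highest striatal and olfactory bulb marker scores (1.43 and 3.07). Its astrocyte, oligodendrocyte and layer 6 scores (0.33, 0.36 and 1.02) were the highest too. The part of these scores in the values was not tested.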

How the results depend on the processing

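The count of probes past an adjusted p of 0.05 was 0 under all 17 alternatives. The count at an unadjusted p under 0.05 was 3837 with the first label number as a random block (estimated correlation -0.22). Each first label number occurs in 1 group only, and a correlation below 0 within numbers narrows the standard errors of that model. The count of 3837 is therefore not read as more difference between the groups. On leaving out single animals the count was 540 (without MS 7.2) to 1537 (without control 8.2), with 1289 without MS 5.3. Of 180 fold changes of the 10 genes under alternatives, 172 kept their direction, and the smallest adjusted p was 0.421. Part of the 172 could not turn. Other filters, the intensity trend and slide row as a block leave the fold change of a gene as it was. So does the mean over probes for genes with a single probe. Leaving out single animals gave -0.079 (without control 8.5) to 0.18 for Nr1d2, -0.18 (without MS 7.6) to 0.064 (without MS 7.2) for Nfil3, also above 0 without MS 7.1 (0.01) and control 8.4 (0.02), -0.062 (without control 8.4) to 0.14 for Hlf, 0.06 to 0.20 for Dbp and Tef, 0.03 to 0.36 for Nr1d1 and 0.00 to 0.24 for Bhlhe40. Against differences of 0.12 for Dbp, 0.07 for Hlf, 0.16 for Tef, 0.18 for Nr1d1, 0.06 for Nr1d2 and 0.20 for Bhlhe41, other scalings gave down to 0.028, 0.025, 0.083, 0.097, 0.036 and 0.117, in that order; the mean over both probes gave 0.15 for Rora and the first label number as a block -0.081 for Nfil3. Without the 3 animals of highest olfactory bulb score, an alternative added after seeing the data, Hlf was at -0.031, Rora at -0.038 and Bhlhe40 at -0.093. The count of members higher in MS was 6 to 10, and their median 0.06 to 0.16. Under the adjusted test 1 of 45 pairs passed with quantile normalization, Dbp and Nr1d1 (r = 0.96, adjusted exact permutation p = 0.0145), and 0 under the other 14 alternatives, in which r of this pair was 0.75 or above; the cause was not tested. Tef and Rora, and Hlf and Rora, turned to -0.53 and -0.75 without the 2 farthest animals. No paired analysis was possible because the labels of the groups share no replicate numbers. With 4 animals a group, the intervals of the 10 genes allow differences of up to 0.63 on the log2 scale.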
